A study of Caenorhabditis elegans with 5 samples.

Results

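The genes described here encode 2 alcohol dehydrogenases and 8 aldehyde dehydrogenases of the nematode Caenorhabditis elegans: adh-1, adh-5, alh-1, alh-2, alh-3, alh-4, alh-6, alh-9, alh-10 and alh-12. They were chosen by gene symbol, as enzymes that may oxidise alcohols, aldehydes or formyl folate, and are 10 of the 17118 genes with a probe set of their own. RNA of whole animals was measured on 5 arrays, 1 array per group. All groups were wild-type hermaphrodites, young adults aged 3 days from age-synchronised cultures. The 4 exposed groups spent 24 h at 20 °C in salt medium, unfed, with benzene, toluene, formaldehyde or a mix of all 3 compounds (the BTF mix), and the control was not exposed. The sources used here give neither the concentrations nor whether the control spent the same time without food.

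Alcohol dehydrogenases convert alcohols to aldehydes, and aldehyde dehydrogenases convert aldehydes to acids. Formaldehyde, which also arises inside cells, reacts with glutathione, and the class III alcohol dehydrogenase encoded by adh-5 oxidises that adduct to a formate derivative. Other members of both families have their main substrates in ethanol use, in the breakdown of amino acids, in fatty aldehydes or in the folate cycle.

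With 1 array per group there is no replicate and no test, so higher and lower describe these arrays only, and no difference has an error. Differences are in log2(intensity + 16), which understates those of dim genes, and they compare each gene with its array as a whole. Array medians lay between 82.3 and 84.8. The background is the 10271 genes whose mean log2 level was at or above the 40th percentile of genes (6.05). Of the dehydrogenase genes 9 passed, and alh-2, which did not, is described with the others. When arrays were scaled instead on poly-A spike-in probe sets, the all-gene median became 0.35 with benzene, 0.09 with toluene, 0.06 with formaldehyde and -0.55 with the mix. In whole-animal RNA, fewer cells of a type and less RNA per cell cannot be told apart.

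The largest difference from control among the 10 genes was a lower level of adh-1 on both arrays from animals that had received formaldehyde. adh-1 (K12G11.3) encodes an alcohol dehydrogenase that the worm uses in ethanol metabolism. Its intensity was 7003 in control, 8271 with benzene, 8655 with toluene, 3994 with formaldehyde and 3549 with the BTF mix. The arrays with formaldehyde were thus the lowest and those with benzene or toluene alone the highest. Against control, adh-1 was 1.75-fold lower with formaldehyde (log2 difference -0.81) and 1.97-fold lower with the mix (-0.98), while it stood 1.18-fold higher with benzene (0.24) and 1.24-fold higher with toluene (0.30).

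adh-1 was the 1 gene of the 10 that lay at least 1.5-fold below control with formaldehyde, where 6.45% of all genes did, and with the mix, where 6.66% did. At 2-fold no member was lower in either exposure, against 2.28% and 2.32% of genes, though adh-1 passed 2-fold in the mix with quantile normalization (-1.03) and with poly-A scaling (-1.53). Within all 10271 genes, 362 (3.52%) were as low as adh-1 or lower with formaldehyde and 253 (2.46%) with the mix. Set directly against the benzene array, which needs no control, the formaldehyde array was 2.07-fold lower for adh-1 (formaldehyde minus benzene -1.05), and 1.24% of genes were 2-fold lower in that comparison. At 1.5-fold, adh-1 was likewise the 1 member lower, against 3.78% of genes, and no member was higher, against 4.47%. The mix stood 0.17 below formaldehyde alone. The lower level with formaldehyde and the mix, and the higher level with benzene and toluene, kept their direction with quantile normalization and poly-A scaling. Poly-A scaling gave 0.64 with benzene, 0.42 with toluene, -0.69 with formaldehyde and -1.53 with the mix. The other settings could hardly move adh-1, which is bright and has 1 probe set, which no setting left out.

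**Figure D1:**
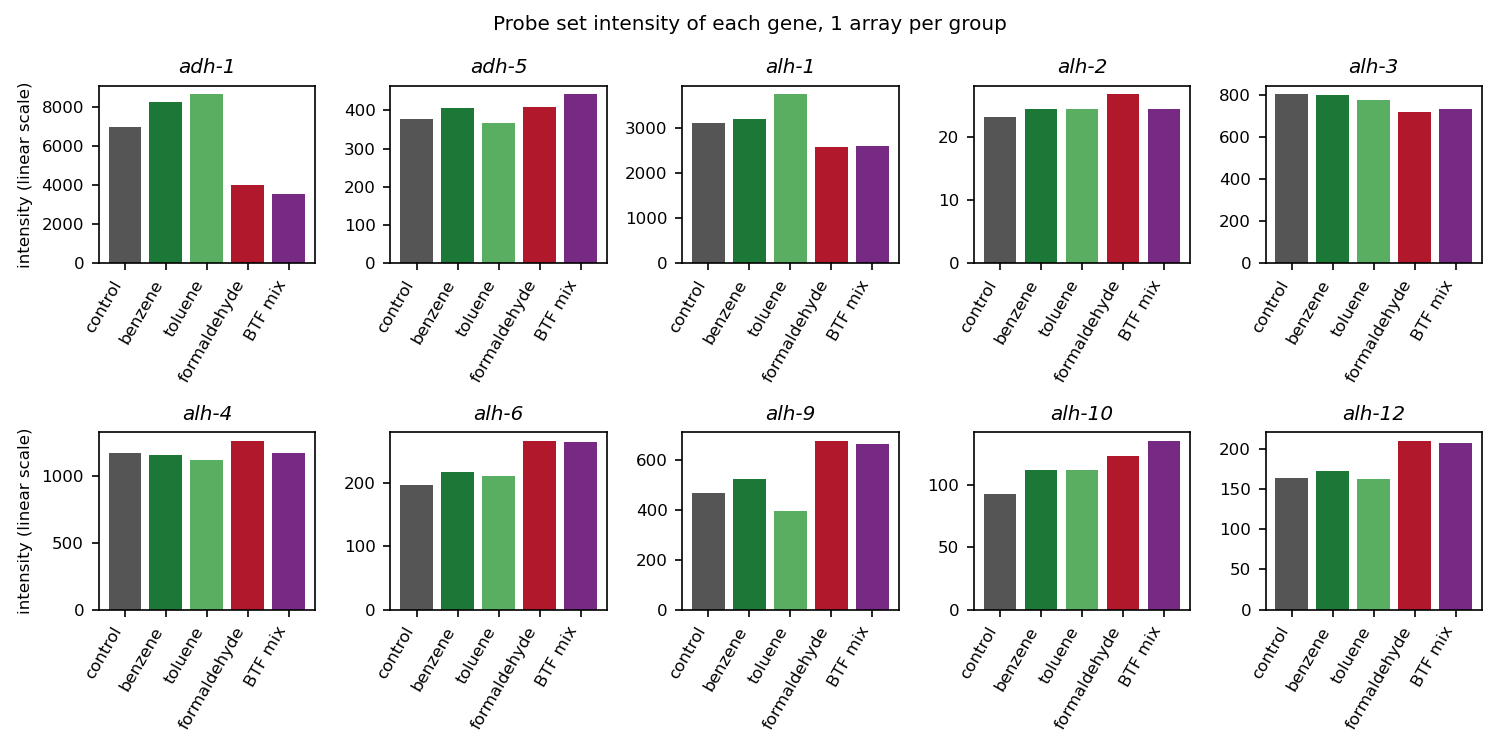
Probe set intensity on a linear scale (vertical axis, from 0, a separate scale for each gene) for each of the 10 genes on the control, benzene, toluene, formaldehyde and BTF mix arrays, each bar being 1 array. adh-1 was at 3994 and 3549 on the formaldehyde and mix arrays and between 7003 and 8655 on the other arrays, and alh-9 was at 677 and 663 against 397 to 523.

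By the rule for likeness of pattern, the 5 genes nearest to adh-1 over the 5 arrays, each gene centred on its own mean log2 level, were ttr-44 (root mean square distance 0.03), hil-3 (0.05), fbxb-88 (0.06), T24B8.3 (0.06) and cest-17 (0.07). ttr-44 had intensities of 1469, 1669, 1710.3, 782 and 718 in control and with benzene, toluene, formaldehyde and the mix. These genes were selected for this likeness, which fixes that they share the directions of adh-1.

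adh-5 (H24K24.3), the class III enzyme that acts on the glutathione adduct of formaldehyde, differed little between arrays. It had 377 in control, 407 with benzene, 368 with toluene, 409 with formaldehyde and 442 with the mix. The mix array was the highest, 1.17-fold above control (0.22), and 17.7% of all genes were as high or higher in that comparison. With formaldehyde alone adh-5 stood at 0.11, about as far from control as with benzene (0.11), and it was at -0.03 with toluene. A second probe set, which the annotation assigns to adh-5 together with Y50D4C.2, showed 0.17, 0.04, 0.21 and 0.27 in the same order of exposures. With poly-A scaling adh-5 stood at 0.49 with benzene and 0.22 with formaldehyde, and it turned to 0.08 with toluene and to -0.31 with the mix. The last value was 0.24 above the shift of all genes on that array.

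The formyl folate enzyme and the mitochondrial aldehyde dehydrogenase were slightly lower on the formaldehyde and mix arrays. alh-3 (F36H1.6) encodes 10-formyltetrahydrofolate dehydrogenase, which oxidises the formyl group carried by folate to carbon dioxide. It had 801 in control, 800.1 with benzene, 773 with toluene, 719 with formaldehyde (-0.15) and 732 with the mix (-0.13). Control was its highest array, yet the whole range over 5 arrays spanned 1.11-fold.

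alh-1 (F54D8.3) encodes a mitochondrial enzyme related to human ALDH2, which clears acetaldehyde. It had 3122 in control, 3210.5 with benzene, 3746 with toluene, 2581 with formaldehyde and 2596 with the mix. Toluene was the high array (0.26), where 8.13% of genes were as high or higher, and formaldehyde and the mix were the low ones (-0.27 and -0.26). Benzene minus toluene was -0.22 for alh-1, the lowest among the 10 genes. With poly-A scaling it was 0.06, which was still below the all-gene median of 0.27 in that comparison. Against control, alh-1 kept its direction under that scaling with toluene (0.38), formaldehyde (-0.16) and the mix (-0.82).

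The other aldehyde dehydrogenase genes that stood higher on the formaldehyde and mix arrays were alh-6, alh-9, alh-10 and alh-12. Of these alh-9 and alh-6 encode enzymes of amino acid breakdown. alh-9 (F01F1.6) corresponds to the human enzyme ALDH7A1, which oxidises aminoadipic semialdehyde in lysine breakdown. Its intensity was 468 in control, 523 with benzene, 397 with toluene, 677 with formaldehyde and 663 with the mix. Toluene was its lowest array (-0.23) and formaldehyde its highest, 1.43-fold above control (0.52), a size that 9.53% of genes reached or passed. With the mix it stood at 0.49. alh-9 also had the largest difference between the aromatic solvents among the members, with benzene 1.30-fold above toluene (0.38), and 3.14% of genes were as high or higher in that comparison.

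alh-6 (F56D12.1) encodes the mitochondrial dehydrogenase of pyrroline-5-carboxylate, the second step of proline breakdown. It had 197 in control, 218 with benzene, 212 with toluene, 267 with formaldehyde and 265 with the mix. All exposed arrays were above control, formaldehyde (0.41) and the mix (0.40) more so than benzene (0.13) and toluene (0.09). Its probe set carries an s mark, which means that it can bind several transcripts.

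alh-10 (C54D1.4) and alh-12 (Y69F12A.2) are further family members, given without a role. alh-10 had 92.7 in control, 112 with benzene, 112 with toluene, 123 with formaldehyde and 135 with the mix, with the mix highest at 0.48 and control lowest. Its probe set is also marked s. alh-12 had 164, 172, 163, 210.0 and 207 in that order, so that formaldehyde (0.33) and the mix (0.31) lay above the other arrays and benzene (0.07) and toluene (-0.0043) close to control. With poly-A scaling the differences of alh-6, alh-9, alh-10 and alh-12 remained positive with formaldehyde, at 0.51, 0.63, 0.46 and 0.44. With the mix they became negative, at -0.12, -0.05, -0.01 and -0.19, which was still 0.36 to 0.54 above the shift of all genes on that array.

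alh-4 and alh-2 were nearly level. alh-4 (T05H4.13) encodes a fatty aldehyde dehydrogenase, and its brightest probe set, marked s, had 1170.1 in control, 1156 with benzene, 1116 with toluene, 1262 with formaldehyde and 1170.1 with the mix. It was measured by 2 further probe sets without that mark, which stood at 0.14 and 0.07 with formaldehyde, beside 0.11 on the brightest, and at -0.20 and -0.14 with toluene, beside -0.07. With benzene the 3 probe sets did not share a direction (-0.07, 0.14 and -0.02). alh-2 (K04F1.15) was dim, with 23.2 in control, 26.8 with formaldehyde and the same value of 24.4 on the other 3 arrays.

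**Figure D2:**
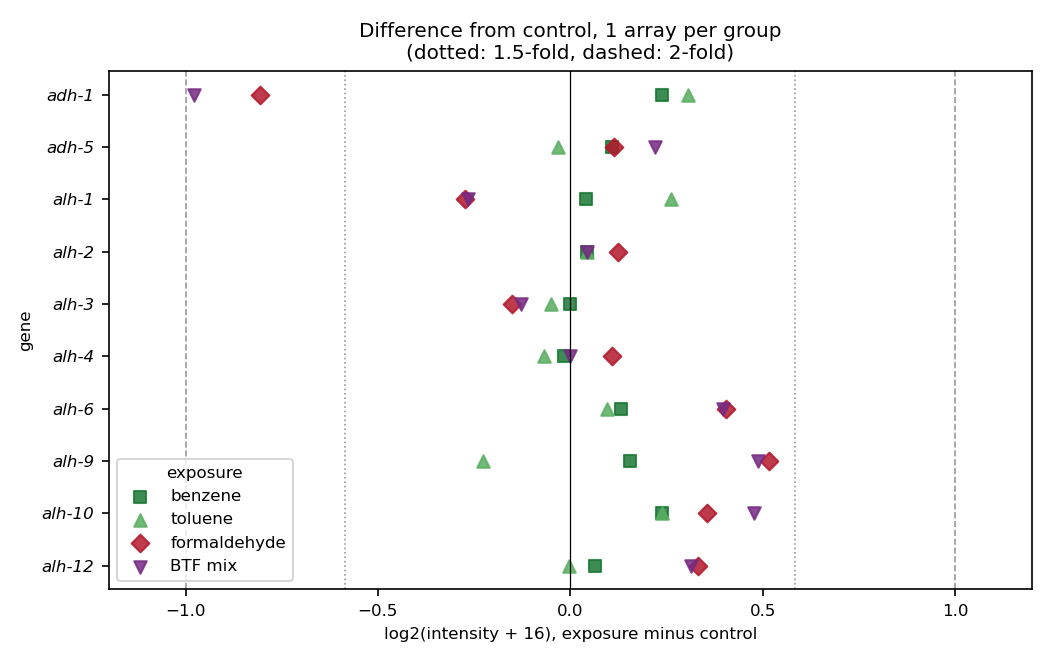
Difference from control in log2(intensity + 16) (horizontal axis) for each gene (vertical axis) and exposure, each symbol being 1 exposed array minus the control array. adh-1 lies beyond the dotted 1.5-fold line with formaldehyde (-0.81) and the mix (-0.98), and the symbols of the other 9 genes lie between -0.27 and 0.52.

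No member was 1.5-fold higher than control in any exposure, where 3.48% of all genes were with benzene, 1.57% with toluene, 8.67% with formaldehyde and 8.46% with the mix. None was 1.5-fold lower with benzene or toluene either, against 0.915% and 0.789% of genes. A count of 0 or 1 of 10 members is near these background shares. The median difference of the 10 members was 0.09 with benzene, 0.02 with toluene, 0.12 with formaldehyde and 0.13 with the mix, and that of all genes past the filter was -0.01, -0.01, -0.05 and -0.04. The median size of the difference, regardless of sign, was 0.30 for the members with formaldehyde and 0.17 for all genes, and 0.29 against 0.17 with the mix. With benzene it was 0.09 against 0.12, and with toluene 0.08 against 0.11.

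**Figure D3:**
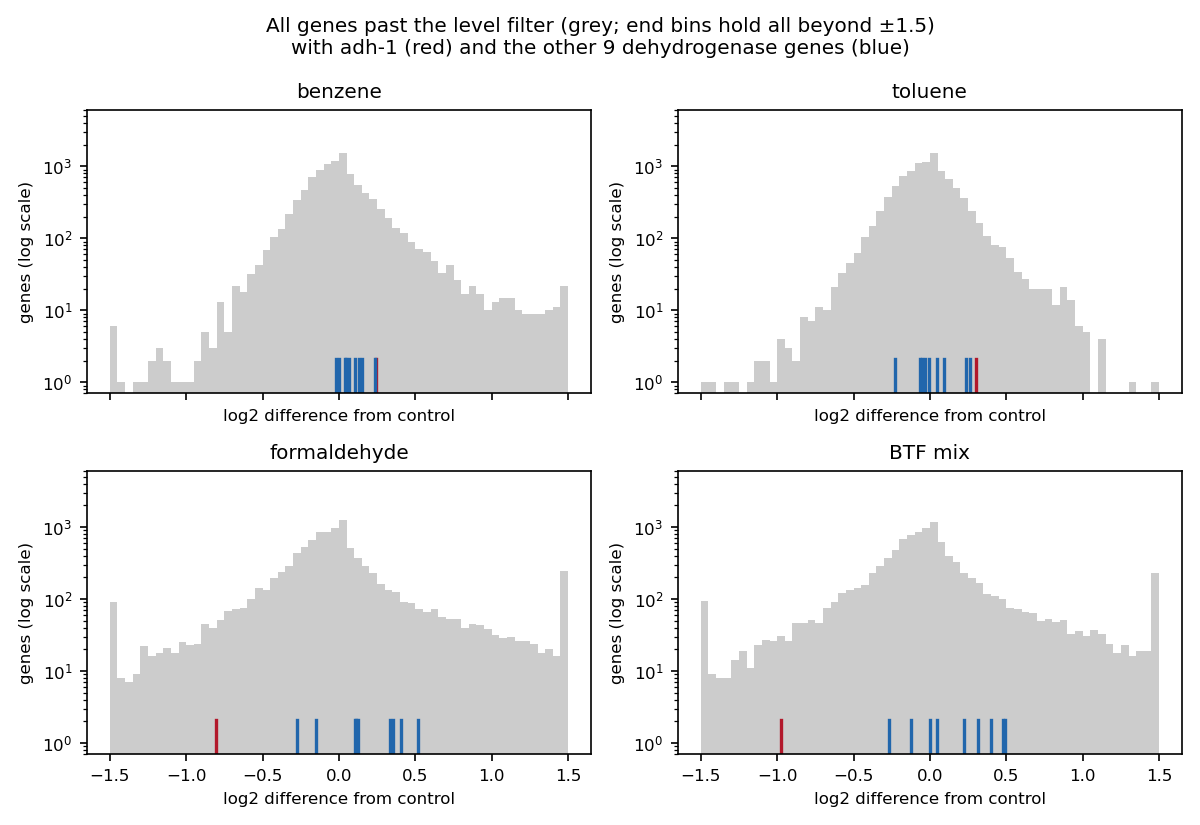
Number of genes (vertical axis, log scale) by log2 difference from control (horizontal axis) for the 10271 genes past the level filter in each exposure, with short lines at adh-1 (red) and the other dehydrogenase genes (blue). With formaldehyde and the mix the members spread from -0.81 to 0.52 and from -0.98 to 0.49, and with benzene and toluene from -0.02 to 0.24 and from -0.23 to 0.30.

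For 8 of the 10 genes the formaldehyde and mix arrays lay together on 1 side of the control, benzene and toluene arrays. They were above for adh-5, alh-6, alh-9, alh-10 and alh-12, as for 20.2% of all genes, and below for adh-1, alh-1 and alh-3, as for 30.4%. In either direction it was 50.6% of genes. All 4 exposed arrays were above control for alh-2, alh-6 and alh-10, as for 22.3% of genes, and below it for alh-3, as for 35.3%. With poly-A scaling no member had all 4 on 1 side of control. The all-gene median was then 0.35 with benzene and -0.55 with the mix, and the share of all genes was not counted. The highest and lowest arrays lay within 0.25 of each other for alh-2, alh-3 and alh-4, as for 44.7% of genes. The count above the other arrays fell to 0 with poly-A scaling, where 1.16% of genes were above, and the same 3 genes stayed below. Between the formaldehyde and mix arrays themselves, the members' differences ran from -0.17 for adh-1 to 0.12 for alh-10, with none 1.5-fold away, where 0.156% of genes were higher in the mix and 0.00974% lower. None was 1.5-fold away between benzene and toluene, against 1.02% of genes higher with benzene and 0.156% lower. Doses are not given, so these pairs of exposures may not be matched.

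The other genes of both families, a list of 14 names of which 8 matched measured genes outside the 10, held a pair of genes with larger positive differences, hphd-1 and alh-5, while the list median was 0.02 with formaldehyde and 0.02 with the mix. In that list 2 genes were 1.5-fold higher with formaldehyde (8.67% of all genes), with the mix (8.46%) and with benzene (3.48%), and 1 with toluene (1.57%). In the list 0 were lower in any exposure. The shares of all genes lower were 6.45%, 6.66%, 0.915% and 0.789% in that order, so 0 of 8 is near background. hphd-1, which encodes a hydroxyacid-oxoacid transhydrogenase of the propionate shunt, had 561 in control, 1698 with benzene, 953 with toluene, 3462 with formaldehyde (2.59) and 3389 with the mix (2.56), with every exposed array above control. alh-5, an aldehyde dehydrogenase family gene, had 93.0, 148, 101, 171 and 218 in the same order, at 0.78 with formaldehyde and 1.105 with the mix. Both rest on probe sets marked s. sodh-2, the gene next to adh-1 on chromosome V in the RefSeq table of assembly WBcel235, had 74.1 in control, 68.6 with benzene, 69.3 with toluene, 46.6 with formaldehyde (-0.52) and 68.6 with the mix (-0.09). It was thus low with formaldehyde, as adh-1 was, but not with the mix. alh-11 was below control throughout, with 970.4 in control and 736 to 812 after the exposures.

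**Figure D4:**
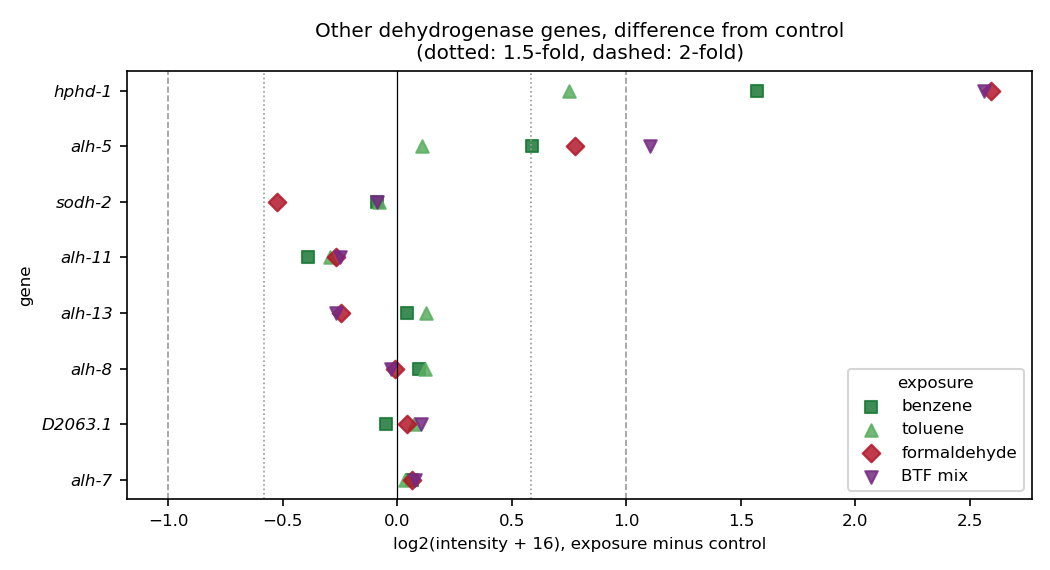
Difference from control in log2(intensity + 16) (horizontal axis) for the 8 other dehydrogenase genes (vertical axis), each symbol being 1 exposed array minus the control array. hphd-1 lies between 0.75 and 2.59 and alh-5 between 0.11 and 1.105, while the remaining 6 genes lie between -0.52 and 0.12.

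Genes that act beside these enzymes were set next to them. Of 11 measured folate one-carbon genes, 4 were 1.5-fold higher with formaldehyde, 3 with the mix, 1 with benzene and 0 with toluene, and none was lower in any exposure. Over all genes the shares higher were 8.67%, 8.46%, 3.48% and 1.57% in that order. The shares lower were 6.45%, 6.66%, 0.915% and 0.789%, so 0 lower of 11 is near background. The list median was 0.31 with formaldehyde and 0.16 with the mix. The genes higher with formaldehyde included the folate transporter gene folt-2 (174 in control, 1253 with formaldehyde) and the glycine cleavage gene gldc-1 (169 and 317). They also included the serine hydroxymethyltransferase gene mel-32 (1984 and 3320.1) and the methionine synthase gene metr-1 (867 and 1331). alh-3, which acts on formyl folate, stood at -0.15 on the same array.

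Among 8 measured genes of amino acid steps, 5 were 1.5-fold higher with formaldehyde and 5 with the mix, 3 with benzene and 1 with toluene. The shares of all genes were the same 8.67%, 8.46%, 3.48% and 1.57%. None was lower, where 6.45%, 6.66%, 0.915% and 0.789% of all genes were, so 0 of 8 is near background. The list median was 0.85 with formaldehyde and 0.90 with the mix. aass-1, which makes the semialdehyde that the alh-9 enzyme uses, had 204 in control, 286 with benzene, 227 with toluene, 375 with formaldehyde (0.83) and 411 with the mix (0.96). Like alh-9 it was highest on the formaldehyde and mix arrays, though alh-9 was below control with toluene and aass-1 was not. The propionate shunt genes hach-1, acdh-1 and ech-6 stood at 1.53, 1.53 and 1.25 with formaldehyde. alh-8, whose enzyme acts on malonic and methylmalonic semialdehydes and which was singled out after its values were seen, stood at -0.01, with 3759 in control and 3731 with formaldehyde. prdh-1, the proline dehydrogenase gene of the step before alh-6 and also singled out afterwards, stood at 0.17 with formaldehyde and 0.31 with the mix.

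None of 7 measured genes of glutathione and reactive aldehyde metabolism was 1.5-fold away in any exposure. The shares of all genes higher were 8.67% with formaldehyde, 8.46% with the mix, 3.48% with benzene and 1.57% with toluene. The shares lower were 6.45%, 6.66%, 0.915% and 0.789% in that order, so 0 of 7 is near background. gcs-1, the glutamate-cysteine ligase gene, had 310.2 in control, 244 with formaldehyde (-0.33) and 234 with the mix (-0.38). Y48G10A.1, the next named gene of that list, stood at -0.04 and 0.23, gss-1, the glutathione synthetase gene, at 0.03 and 0.12, and gsr-1, the glutathione reductase gene, at 0.15 and 0.14. Of 5 target genes of SKN-1, a transcription factor that is activated in alh-6 mutants, 2 were 1.5-fold higher with formaldehyde (8.67% of all genes), 3 with the mix (8.46%), 1 with benzene (3.48%) and 1 with toluene (1.57%). The list median was 0.43 with formaldehyde and 0.66 with the mix. gst-10 stood at 1.67 and 1.87, gst-4 at 0.88 and 0.98, sdz-8 at 0.39 and 0.66 and nit-1 at 0.43 and 0.48 with formaldehyde and the mix, while gcs-1 belongs to both lists.

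Some tissue marker lists also differed on the formaldehyde and mix arrays. The 25 marker genes of intestine, hypodermis, muscle, germ line, neurons and pharynx that were measured all passed the level filter, and none was at 0. The summed intensity of 6 intestine markers was 2008 in control, 3243 with benzene, 2187 with toluene, 5148 with formaldehyde and 4803 with the mix, and that of 4 hypodermis markers 6872, 11496, 9989, 15067 and 13418. Much of each rise with formaldehyde came from 1 gene, act-5 of intestine (511 in control, 2717 with formaldehyde) and col-12 of hypodermis (2899.7 in control, 8788 with formaldehyde). In control vha-6 of intestine (714) and col-19 of hypodermis (3536) were brighter than these. The dimmer intestine gene pho-1 was also higher (29.9 in control, 22.8 with toluene, 220 with formaldehyde). pho-1 passed the level filter only through the arrays where it was high, and it counts among the higher intestine markers below. Within the lists, 3 of 6 intestine markers were 1.5-fold higher with formaldehyde, 2 with the mix, 3 with benzene and 0 with toluene. Of 4 hypodermis markers it was 3, 2, 1 and 1 in that order. The shares of all genes were 8.67%, 8.46%, 3.48% and 1.57%. elt-2, the intestinal transcription factor gene, stood at 0.03 and 0, and the hypodermal collagen gene dpy-7 at -0.12 and -0.22. Body wall muscle markers had 14732 in control and 12599 and 12427 with formaldehyde and the mix, germ line markers 9774, 9769.9 and 9794, neuron markers 3930.2, 3465 and 3459.8, and pharynx markers 2315, 2597 and 2421. The muscle gene unc-22 went against its sum, at 0.70 with formaldehyde and 0.57 with the mix. Among neuron markers, rab-3 stood at -0.67 with benzene, -0.64 with toluene and with formaldehyde, and -0.80 with the mix. The other neuron markers lay between -0.16 and 0.15. The part of these shifts in the levels of the dehydrogenase genes was not tested.

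**Figure D5:**
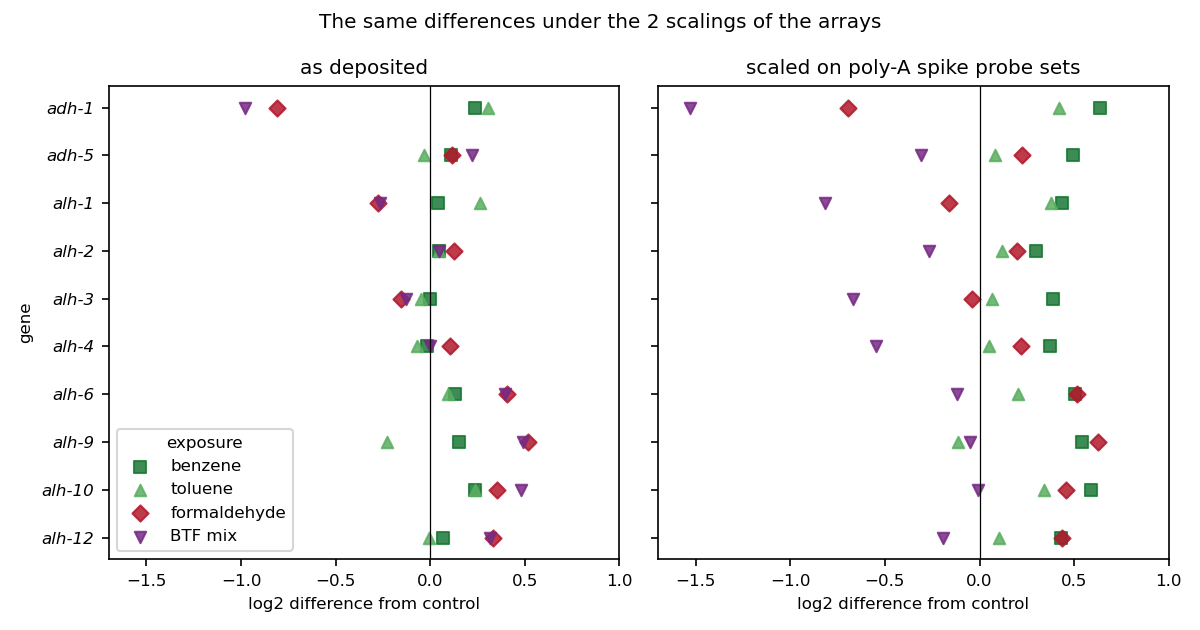
Log2 difference from control (horizontal axis) of the 10 genes (vertical axis) with arrays as deposited (left) and scaled on the poly-A spike probe sets (right), each symbol being 1 exposed array minus the control array. adh-1 is below 0 with formaldehyde and the mix in both panels, and with poly-A scaling all 10 genes are below 0 with the mix (-1.53 to -0.01) and above 0 with benzene (0.30 to 0.64).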

How the data were processed

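The authors deposited a linear intensity for each of 22625 probe sets on 5 arrays. Per the submitters' processing notes, RMA, Affymetrix Expression Console 1.1 and MAS5 were used, with roles not given in the sources used here. Labelling started from 300 ng RNA, per the labels' protocols. Exactly equal values on some arrays occurred in 10677 probe sets (47.2%). Probe sets with 1 gene in the platform annotation (20766, of which 20701 matched RefSeq by Entrez identifier) were used, and the probe set of highest mean stood for a gene. A pseudocount of 16 was added before log2. No test was possible, and the number of arrays limits the precision. Folds of 1.5 and 2 are fixed rules of size. Named were all members, up to 4 genes per list with the largest difference in any exposure, and the 5 genes nearest to the member furthest from control. Members and lists were chosen with earlier results of these data known. The list names that matched no gene were left out. Counting was tested on simulated data. Promoter and protein sequences were not used here. Python 3.11.15 and pandas 2.3.3 were used.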

Additional observations from a re-analysis of the deposited data

How the results depend on the processing

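Settings tried were pseudocounts of 1 and 64, centring on the median, quantile normalization, scaling on 27 poly-A spike probe sets, averaging the probe sets of a gene, and leaving out probe sets marked s or x, which removed alh-6 and alh-10. Apart from poly-A scaling these left the members' medians within 0.1 and the counts of members past 1.5-fold within 1.5 times. With poly-A scaling the members' median against control was 0.46 for benzene, 0.22 for formaldehyde and -0.29 for the mix. The median of all genes past the filter was 0.35, 0.06 and -0.55 in that order. Between exposures the members' median was 0.31 for benzene minus toluene, -0.63 for mix minus formaldehyde and -0.15 for formaldehyde minus benzene. The all-gene median of these differences was 0.27, -0.62 and -0.28. The members 1.5-fold higher then numbered 2 with benzene and 1 with formaldehyde, and those lower with the mix 3. The share of all genes past 1.5-fold was not counted under this scaling. These counts therefore cannot be told apart from the shift of all genes. Members with formaldehyde and mix both above the other arrays numbered 0, against 1.16% of genes (settings for this last count were chosen after seeing the data). At 2-fold, 0 members were lower with formaldehyde and 0 with the mix. Without a level filter the share of all genes 1.5-fold higher was 2.09%, 0.952%, 5.6% and 5.39% with benzene, toluene, formaldehyde and the mix, and lower 0.602%, 0.520%, 4.14% and 4.24%. Dropping the filter adds dim genes to the background. Why the poly-A spike probe sets and the deposited scaling of the arrays differ was not tested. No paired analysis was possible because each group has 1 array.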
